A study of Mus musculus with 7 samples.

Results

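The 9 genes described here encode proteins of the synaptic vesicle and of the active zone, the release site on the presynaptic membrane. They are Syp, Sv2a, Sv2b, Syn1, Syn2, Rab3a, Bsn, Pclo and Rims1, taken by exact symbol from a table of 36666 genes. All 9 passed the filter on low values, as did 22828 genes in all, and 118 of 86425 listed exons belong to 8 of them. The RNA came from cerebral cortex of C57BL/6 mice, 4 samples taken at embryonic day 17 and 3 from young adults, and the labels name no allele and no treatment. Each sample is bulk tissue, so fewer cells of a type and less RNA per cell cannot be told apart. Whether a sample is 1 animal or a pool is not stated, so the p-values speak only of sample-to-sample spread, which may be technical.

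At a chemical synapse, neurotransmitter is stored in small vesicles that dock at the active zone, fuse when calcium enters, and are then retrieved and refilled. Synaptophysin, encoded by Syp, and the SV2 glycoproteins are integral membrane proteins of these vesicles. Synapsins coat the vesicles and tie them into a reserve cluster, and Rab3a is a GTPase that marks vesicles for docking. Bassoon and Piccolo, encoded by Bsn and Pclo, are giant scaffolds of the active zone, and RIM1, encoded by Rims1, links Rab3 on the vesicle to the calcium channels and the Munc13 priming factors. In the mouse cortex most synapses form after birth, so day 17 of gestation precedes the main period of synapse formation.

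Levels are reads of a gene per 1000000 reads in genes (CPM), with mean ± SD over n = 4 embryonic and n = 3 adult samples. The samples held 18444272 to 23606525 reads in genes. Differences are adult minus embryonic means on the deposited log2-like scale, on which 1 is close to a doubling for genes at these levels, with the standard error (SE) and the Benjamini-Hochberg adjusted p of limma over all genes tested. A gene was called when that p was under 0.05. CPM are scaled by the total reads in genes and the deposited values by other factors per sample. A fold in CPM and its difference therefore need not match exactly. Pairs of samples within a group differed by more than counting noise, by 4.83 to 17.7 in chi-square divided by its degrees of freedom. Embryonic replicate 3 stood apart by gene length: its median deviation from the other embryonic samples was 0.098 over genes with under 3 kb of exons and -0.21 over genes with at least 10 kb.

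Promoters of the 9 genes were searched for short motifs that the plan had named. The windows run from 250 bases before to 50 bases after the start, in the RefSeq table for GRCm38.p6, which held 14 entries for the 9 genes. REST is a repressor that silences neuronal genes in other cells, and Syn1 is a classical target of it. All motifs were searched on both strands. The left part of the REST motif, TTCAGCACC, was present in 0.371% of 32851 promoters of the same length. Among the 9 genes it was found in Syn1 alone, 232 bases before the start. The right part, GGACAGCG, was in 1.26% of all promoters and in none of the 14 entries. The GC box GGGCGG, the core of the Sp1 motif, was in 35.7% of all promoters and in 7 of the 14 entries, with no match in those of Syn1 and Bsn. TATAAA was in 13.6% of all promoters and, among the 9 genes, in 2 entries of Sv2b only. In both entries it lay on the strand opposite to the gene, reading TTTATA in the direction of transcription. The promoter of Syn1 is shown for its part of the REST motif, that of Syp for its GC boxes, and the first listed one of Sv2b because this gene had the largest difference of the 9. They lie at chrX:20920869-20921168 on the minus strand, chrX:7638330-7638629 on the plus strand and chr7:75309213-75309512 on the minus strand. Capitals mark that part of the REST motif in Syn1 and the GC boxes in Syp and Sv2b.
Syn1: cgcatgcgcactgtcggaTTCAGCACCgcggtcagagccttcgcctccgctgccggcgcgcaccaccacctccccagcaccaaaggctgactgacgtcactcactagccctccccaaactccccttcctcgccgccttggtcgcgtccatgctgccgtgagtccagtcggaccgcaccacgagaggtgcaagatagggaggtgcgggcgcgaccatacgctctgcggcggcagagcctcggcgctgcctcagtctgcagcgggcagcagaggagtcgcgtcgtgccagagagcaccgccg
Syp: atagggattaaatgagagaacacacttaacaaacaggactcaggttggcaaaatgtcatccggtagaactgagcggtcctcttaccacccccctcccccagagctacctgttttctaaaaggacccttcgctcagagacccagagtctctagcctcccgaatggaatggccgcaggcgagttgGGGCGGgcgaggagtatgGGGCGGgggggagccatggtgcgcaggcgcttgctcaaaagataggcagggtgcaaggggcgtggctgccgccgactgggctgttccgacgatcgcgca
Sv2b: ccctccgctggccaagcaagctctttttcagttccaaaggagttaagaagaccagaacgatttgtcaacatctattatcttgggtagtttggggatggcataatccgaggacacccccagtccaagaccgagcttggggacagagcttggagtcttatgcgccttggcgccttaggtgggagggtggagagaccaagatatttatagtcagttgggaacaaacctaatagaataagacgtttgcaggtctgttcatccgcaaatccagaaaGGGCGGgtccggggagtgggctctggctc
A match of letters is a description of the sequence and not a bound site. Rest mRNA itself was measured at 24.0, 20.6, 16.5 and 21.4 CPM in embryonic replicates 1 to 4 and at 7.42, 8.26 and 5.85 CPM in adult replicates 1 to 3. It fell by 1.36 on the deposited scale (SE 0.14, limma adjusted p = 7.72e-07), and the groups did not overlap. Whether Rest or any of these motifs had a part in the differences of the 9 genes was not tested.

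Do mRNAs of the release apparatus change between the late embryonic and the young adult cortex? All 9 genes were higher in adult cortex, and for each of them the 3 adult values lay above the 4 embryonic values. Among all genes tested, 35.8% were called higher in adult cortex and 35.7% had all adult values above all embryonic ones. In either direction, 69.7% of tested genes were called and 68.9% had groups that did not overlap. The median difference of the 9 genes was 2.06, against 0.026 over all genes tested. Centring each sample on its median moved every difference by -0.18 and left all 9 called. The smallest difference was in Pclo, at 1.74-fold in CPM, and the largest in Sv2b, at 14.3-fold.

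The 3 vesicle membrane proteins rose by 2.88-fold to 14.3-fold. Syp was at 132, 134, 168 and 132 CPM in embryonic replicates 1 to 4 and at 935, 1066 and 1027 CPM in adult replicates 1 to 3. Embryonic replicate 3 was the highest of its group, and the gap to the adult samples exceeded the spread within either group. The mean rose from 142 ± 17.8 to 1009 ± 67.1 CPM, 7.12-fold, with a difference of 2.92 (SE 0.10, limma adjusted p = 7.16e-12). Sv2b, a vesicle glycoprotein related to Sv2a, was at 31.4, 26.1, 38.5 and 40.1 CPM in the embryonic and at 539.9, 432 and 488 CPM in the adult samples. It was the least abundant of the 9 genes in the embryo and varied the most there, with 579 to 868 reads per embryonic sample. Its difference was 3.90 (SE 0.13, limma adjusted p = 6.95e-12). Sv2a, the brain-wide SV2 form and the binding site of the antiepileptic drug levetiracetam, was at 168, 183, 208 and 178 CPM in the embryonic and at 477, 546 and 565 CPM in the adult samples. It was already well expressed in the embryo, and its rise was 2.88-fold, with a difference of 1.61 (SE 0.09, limma adjusted p = 1.53e-09).

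Both synapsins rose, with a larger estimate for Syn2. Syn1 was at 108, 104, 127 and 118 CPM in the embryonic and at 497, 519 and 493 CPM in the adult samples. The adult samples were close to each other, at 503 ± 13.6 CPM, and 4.40-fold above the embryonic mean of 114 ± 10.6 CPM (difference 2.22, SE 0.08, limma adjusted p = 1.98e-11). Syn2 was at 65.9, 61.3, 74.4 and 69.3 CPM in the embryonic and at 436, 479.9 and 483 CPM in the adult samples, a 6.89-fold rise (difference 2.85, SE 0.08, limma adjusted p = 2.15e-12). Timp1 lies within Syn1, and Timp4 within Syn2, on the opposite strand. No source used here states that reads were assigned by strand, so reads over both genes of such a pair cannot be told apart.

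Rab3a had the smallest estimate among the vesicle genes, within 1 SE of that of Sv2a. It was at 173, 174, 204 and 187 CPM in the embryonic and at 517, 536 and 514 CPM in the adult samples. The rise was 2.83-fold (difference 1.58, SE 0.08, limma adjusted p = 3.25e-10), without overlap of the groups.

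All 3 active zone scaffolds rose, with differences from 0.89 to 2.06. Bsn was at 244, 232, 189 and 222 CPM in the embryonic and at 649, 695 and 666 CPM in the adult samples, a 3.02-fold rise (difference 1.68, SE 0.09, limma adjusted p = 7.07e-10). Pclo, the close relative of Bsn, was at 195, 166, 149 and 193 CPM in the embryonic and at 323, 297 and 297 CPM in the adult samples. Here the gap between the groups was narrow beside the other 8 genes, and the difference was 0.89 (SE 0.09, limma adjusted p = 1.10e-06). Rims1 was at 77.3, 72.7, 74.5 and 76.0 CPM in the embryonic samples, the tightest embryonic spread of the 9 genes, and at 279, 325 and 291 CPM in the adult samples. It rose 3.97-fold (difference 2.06, SE 0.08, limma adjusted p = 2.11e-11).

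**Figure D1:**
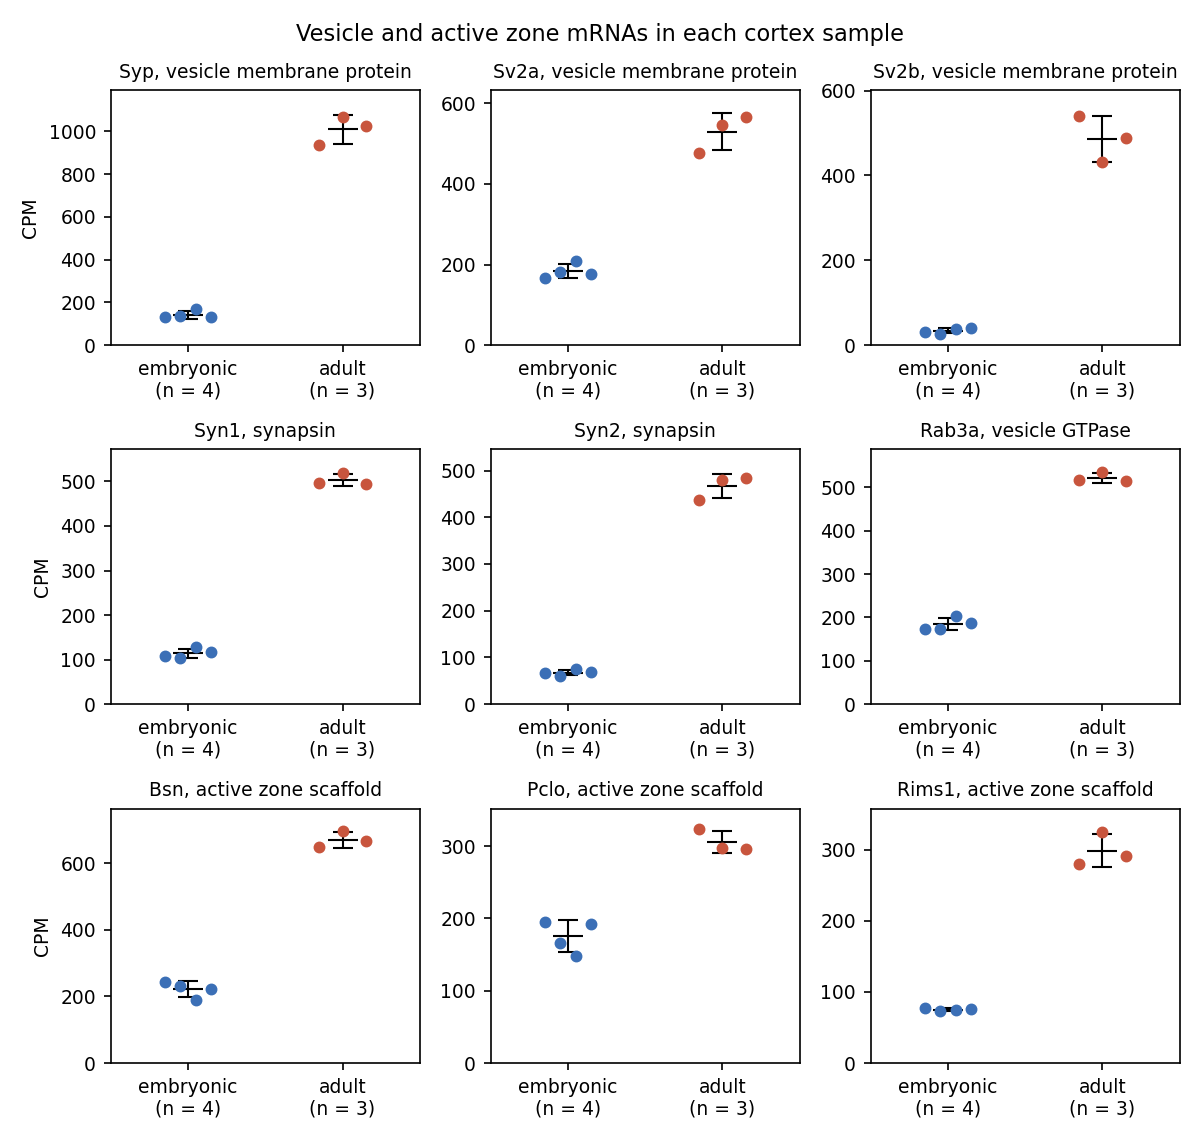
CPM of each of the 9 genes in every sample (vertical axes from 0, each panel with its own scale), for 4 embryonic (blue) and 3 adult (red) samples, with bars at the mean ± SD. In each panel the adult points lie above the embryonic points, by the widest margin in Sv2b (14.3-fold) and the narrowest in Pclo (1.74-fold).

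Set among all genes tested, Sv2b had a larger difference than 98.3% of them, Syp than 95.8%, Syn2 than 95.6%, and Pclo than 74.8%. In adult cortex the CPM of Syp was above that of 99.7% of tested genes, and that of Rims1, the lowest of the 9 by this measure, above that of 97.6%. In the embryo the range was wider, from 71.7% for Sv2b to 96.4% for Bsn.

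The spread among embryonic samples was shared by groups of these genes. Embryonic replicate 3 was the highest of the 4 for Syp, Sv2a, Syn1, Syn2 and Rab3a and the lowest for Bsn and Pclo. Its CPM differed from the mean of the other 3 embryonic samples by 26.7% for Syp and by 14.5% for Rab3a, whose exons add up to 2.59 and 1.79 kb. It differed by -18.9% for Bsn and by -19.5% for Pclo, the longest of the 9 at 15.9 and 22.1 kb. Between these lengths it differed by 16.0% for Syn1, 18.3% for Sv2a, 13.6% for Syn2 and 18.4% for Sv2b (3.30 to 5.91 kb). For Rims1, at 6.86 kb, it differed by -1.07%. Over genes of 3 to 6 kb with a mean of at least 100 reads, the median deviation of embryonic replicate 3 was -0.0073 on the deposited scale. All 9 genes were still called higher without this sample, with differences of 3.003 for Syp, 1.61 for Bsn and 0.82 for Pclo in limma.

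**Figure D2:**
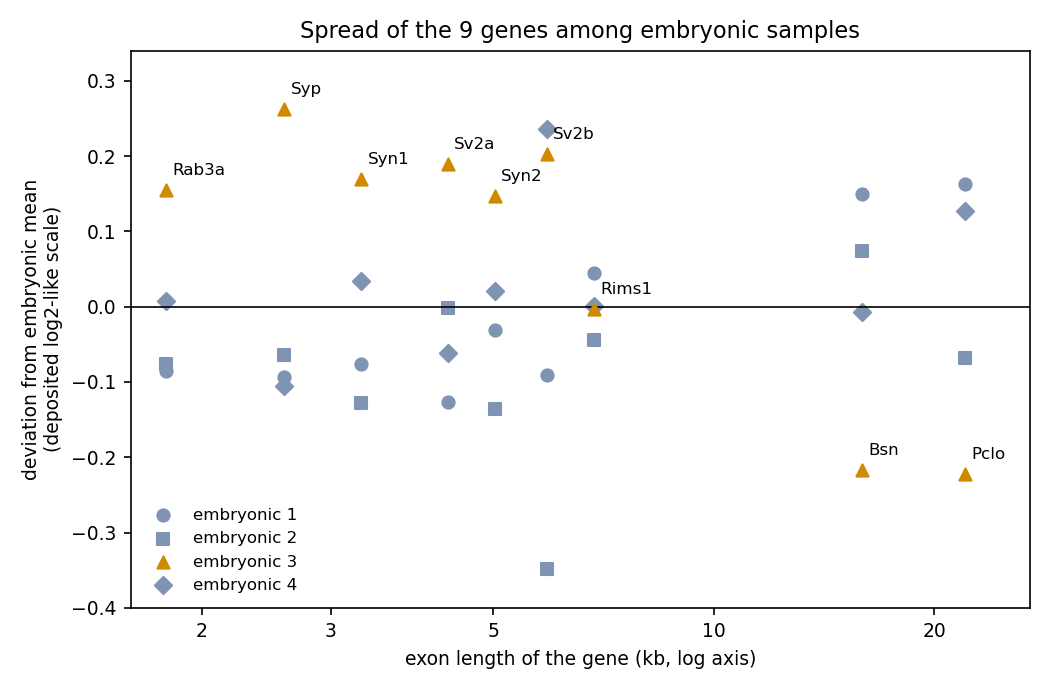
Deviation of each embryonic sample from the embryonic mean, on the deposited log2-like scale, against the exon length of the gene in kb (log axis). Symbols are the 4 embryonic samples, with embryonic replicate 3 in orange: it lies above the mean for the shorter genes (Syp 0.26) and below it for Bsn (-0.22) and Pclo (-0.22).

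Levels were compared between genes per kb of exon, since longer transcripts give more reads. In adult cortex the order was Syp (390 CPM per kb), Rab3a (292), Syn1 (153), Sv2a (122), Syn2 (92.8), Sv2b (82.3), Rims1 (43.5), Bsn (42.0) and Pclo (13.9). The ranges of Syn2 and Sv2b overlapped, as did those of Rims1 and Bsn, and the other neighbours were apart. In the embryo Rab3a came first at 103 CPM per kb, followed by Syp (54.7), Sv2a (42.5), Syn1 (34.6), Bsn (13.9), Syn2 (13.5), Rims1 (10.9), Pclo (7.97) and Sv2b (5.76). Bsn overlapped with Syn2 there, and Pclo with Sv2b. Vesicle genes thus stood above the scaffolds per kb at both ages, with the exceptions of Syn2 and Sv2b in the embryo.

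The make-up of several families differed between the ages. Shares are percentages of the summed CPM per kb of a family. Sv2a made up 86.9% ± 2.003 of SV2 mRNA in the embryo and 58.8% ± 4.50 in the adult, while Sv2b went from 11.8% ± 1.89 to 39.6% ± 4.38. Among synapsins, Syn2 went from 25.2% ± 0.387 to 37.5% ± 1.28, and Syn1 from 64.8% ± 1.36 to 61.6% ± 1.27. Syn3, the third synapsin, went from 9.91% ± 1.55 to 0.938% ± 0.220, and its CPM fell from 28.6 ± 2.75 to 12.6 ± 2.69 (difference -1.07, SE 0.13, limma adjusted p = 5.38e-06). Timp3, which rose from 11.5 ± 0.921 to 72.5 ± 13.7 CPM, lies within Syn3 on the opposite strand. In each of these synapsin and SV2 shares the adult and embryonic samples did not overlap.

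Rab3a held 66.9% ± 1.22 of Rab3 mRNA in the embryo and 79.0% ± 1.58 in the adult. Rab3d, a form known from secretory cells outside the brain, held 6.30% ± 0.472 and 0.684% ± 0.0653, and its CPM fell from 38.3 ± 2.13 to 10.02 ± 1.08 (difference -1.78, SE 0.10, limma adjusted p = 1.19e-09). Rims1 went from 29.3% ± 1.11 to 37.7% ± 1.84 of RIM mRNA, whereas the shares of Rims2, Rims3 and Rims4 overlapped between the ages. Bsn made up 63.6% ± 1.82 of the Bassoon and Piccolo pair in the embryo and 75.2% ± 1.499 in the adult. Within the ELKS scaffolds, Erc1 went from 47.9% ± 0.888 to 20.5% ± 2.17, the remainder being Erc2.

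Whether paralogs rose unequally was tested as a difference of differences between paralogs within each sample, for 6 pairs. With 4 against 3 samples, the form of exact two-sided permutation test used here has a smallest p of 2 in 35, or 0.0571. No pair could therefore pass 0.05 by this form of the test. That smallest p was reached by Sv2b minus Sv2a, whose difference was 2.30, by Syn2 minus Syn1 (0.64) and by Pclo minus Bsn (-0.79). Rims2 minus Rims1 (-0.77) and Rab3c minus Rab3a (-0.64) reached it as well. Each of these pairs had an adjusted permutation p of 0.0686. Synpr minus Syp differed by 0.16 (exact permutation p = 0.4). Synpr, or synaptoporin, is a synaptophysin relative that rose from 9.94 ± 0.739 to 84.6 ± 7.51 CPM. Syp held 88.6% ± 1.87 of the physin mRNA in the embryo and 93.2% ± 0.817 in the adult. The share of Synpr went from 4.10% ± 0.597 to 5.12% ± 0.662, with overlapping groups. That of Sypl, the remaining physin, fell from 7.35% ± 1.29 to 1.65% ± 0.178.

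**Figure D3:**
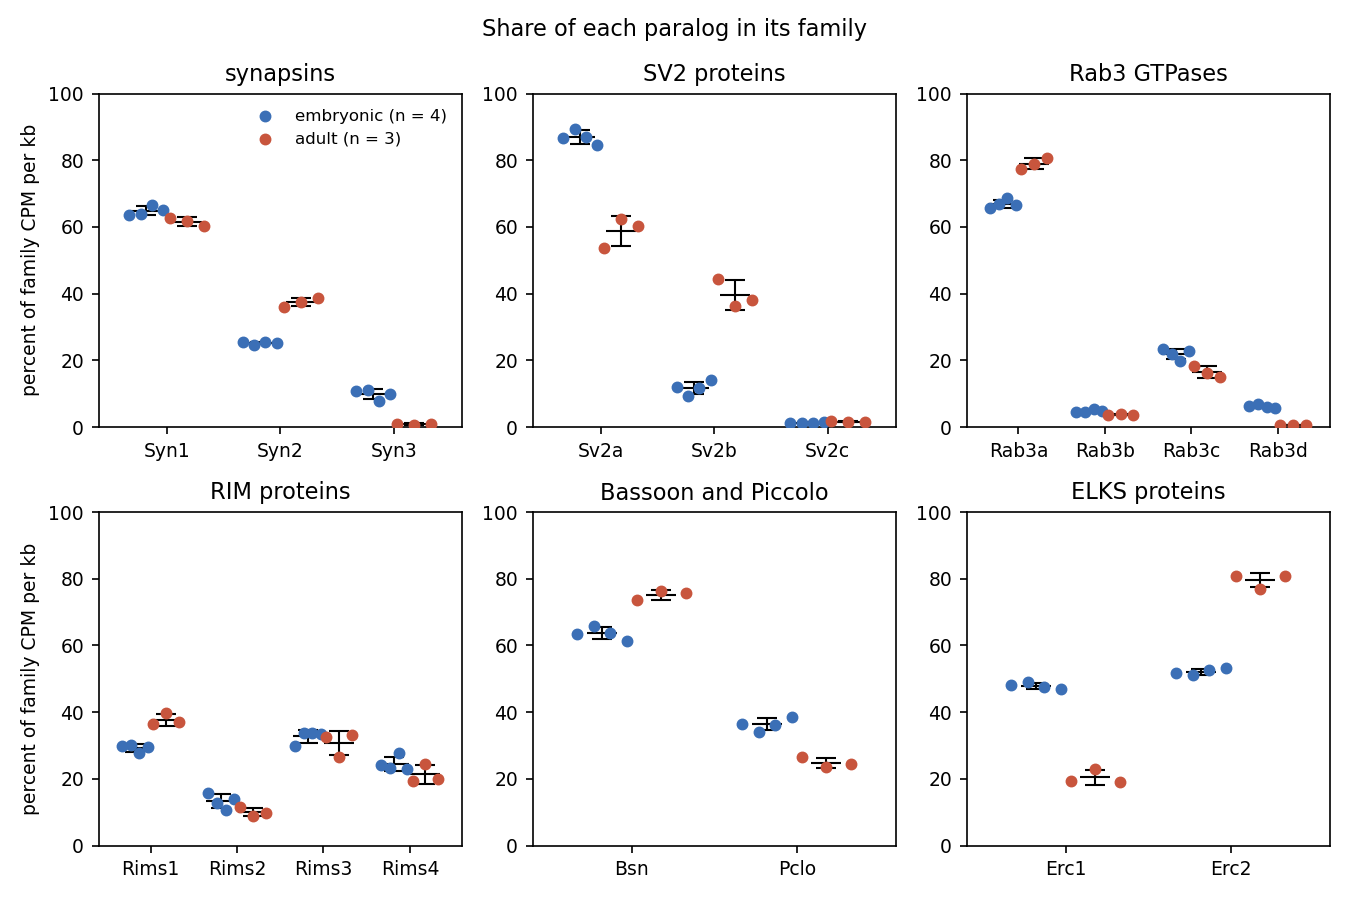
Share of each paralog in the summed CPM per kb of its family, in percent, for 4 embryonic (blue) and 3 adult (red) samples, with bars at the mean ± SD. Sv2b goes from 11.8% to 39.6% of the SV2 family, and Erc1 from 47.9% to 20.5% of the ELKS pair, while Rims2, Rims3 and Rims4 overlap between the ages.

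The rest of the release machinery was followed in a list of 71 further genes. Of these, 53 rose, 13 fell and 5 were not called, with a median difference of 1.08, and among all genes tested 33.9% were called lower in adult cortex. All 5 physins and gyrins were higher, including Synpr (difference 3.08) and Syngr1, which rose from 105 ± 11.4 to 644 ± 45.7 CPM. Of 8 SV2 relatives, carrier-associated membrane proteins and vesicular transporters, 7 were higher and Slc17a6 was not called. Slc30a3, the transporter that loads zinc into vesicles, had the largest difference of the list, 6.02, and rose from 1.35 ± 0.326 to 112 ± 13.9 CPM. Slc17a7, the main vesicular glutamate transporter of the adult cortex, rose from 52.2 ± 7.70 to 1312 ± 61.1 CPM. Slc17a6, its relative, was at 60.8 ± 4.08 and 58.5 ± 18.04 CPM, and adult replicate 3 was at 37.8 CPM against 70.3 and 67.5 CPM in the other adult samples.

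The Rab3 cycle covers the GTPases, their effectors and their regulators. Of its 14 genes, 10 were higher, Rab3d was lower, and 3 were not called, among them Rab3ip and Rab3il1. The largest rise was in Rab27b, a related secretory GTPase, from 3.49 ± 0.517 to 35.3 ± 6.17 CPM. Of 10 synaptotagmins, a family that includes calcium sensors, 8 were higher and Syt4 and Syt6 lower. Syt12 showed the largest rise, from 0.916 ± 0.226 to 32.2 ± 3.81 CPM, and Syt1, the fast sensor of forebrain neurons, rose 6.92-fold to 1501 ± 48.4 CPM. Syt4 fell from 294 ± 42.7 to 174 ± 25.6 CPM (difference -0.66) and Syt6 from 47.1 ± 4.90 to 27.1 ± 1.74 CPM (difference -0.69).

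Among 18 further active zone genes, 13 rose and 5 fell. The largest rise was in Lin7b, a PDZ-domain adaptor, from 5.18 ± 0.207 to 48.6 ± 4.05 CPM. The 3 largest falls were in Erc1 (from 168 ± 9.43 to 64.4 ± 2.38 CPM, difference -1.28), in Cask, a membrane-associated scaffold kinase (from 191 ± 12.1 to 91.6 ± 6.59 CPM, difference -0.97), and in Unc13b, which encodes Munc13-2 (from 101 ± 3.28 to 55.1 ± 8.08 CPM, difference -0.79). Relatives of these genes, named after their values were seen, went the other way: Erc2 rose from 135 ± 9.27 to 186 ± 16.99 CPM, Unc13a from 262 ± 9.39 to 458 ± 47.9 CPM and Unc13c from 7.43 ± 0.810 to 61.5 ± 8.21 CPM. The other 2 that fell were the liprins Ppfia1 (difference -0.65) and Ppfia2 (-0.45), whereas the liprin Ppfia3 rose (1.35).

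Of 15 genes of vesicle recycling, 10 were higher, 4 lower, and Ap3b2 was not called. Pacsin1, a membrane-bending partner of dynamin, rose the most, from 34.2 ± 3.17 to 467 ± 20.9 CPM. The falls were in Itsn1, an endocytic scaffold (difference -1.07), Picalm, a clathrin assembly protein (-0.47), Sh3gl1, an endophilin (-0.41), and Dnm2, the widely expressed dynamin (-0.27, limma adjusted p = 0.0136, not called without adult replicate 3, adjusted p = 0.0744). Dnm1, the neuronal dynamin that pinches vesicles off the membrane, rose from 173 ± 11.3 to 1519 ± 89.7 CPM and from 46.8% ± 2.19 to 88.1% ± 1.25 of dynamin mRNA per kb.

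**Figure D4:**
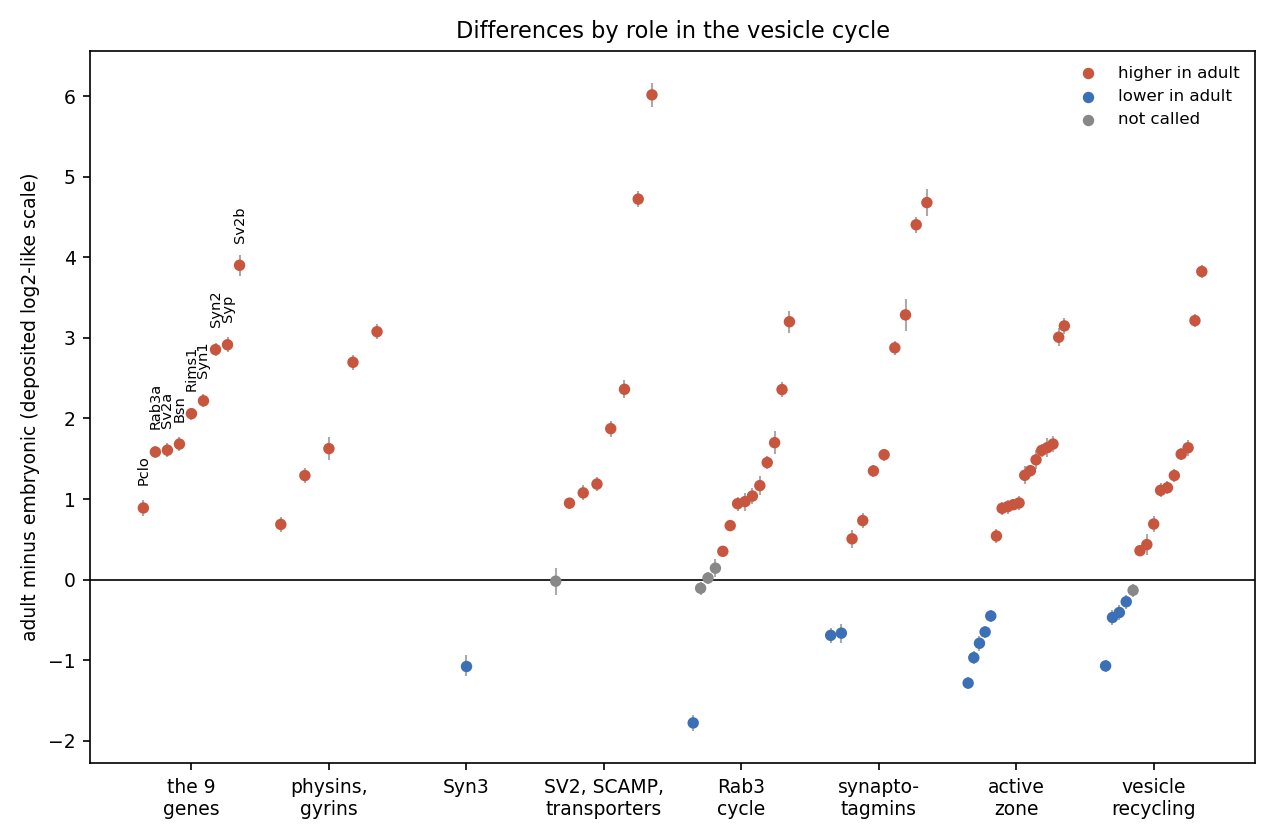
Adult minus embryonic difference on the deposited log2-like scale, one point per gene with its SE, grouped by role. Red points are higher in adult, blue points lower, and grey points not called: the 9 genes lie between 0.89 and 3.90, and falls occur for Syn3 and in the Rab3 cycle, synaptotagmin, active zone and recycling groups.

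Markers of cell types moved with the same comparison, and their part in these differences was not tested. For the counts below, the shares over all genes tested were 35.8% called higher and 33.9% called lower in adult cortex. Of 10 general neuronal markers, 2 (Eno2 and Nefl) were higher and 7 lower in adult cortex, and their summed level went from 8526 to 8904 CPM in the embryonic samples to 4447 to 4479 CPM in the adult samples. Dcx, a transcript of young neurons, fell from 1859 ± 204 to 38.6 ± 4.002 CPM. The 6 markers of cortical excitatory neurons summed to 1625 to 1726 CPM in the embryo and to 1573 to 1686 CPM in the adult, where Slc17a7 was the 1 that rose and 5 fell. Most of the adult sum was Slc17a7, which went from 52.2 to 1312 CPM. Slc17a7 and the inhibitory marker Slc32a1 are also in the list of further vesicle genes. Inhibitory neuron markers (3 of 3 higher) summed to 148 to 203 CPM and to 588 to 659.8 CPM, and progenitor markers (6 of 7 lower) to 625 to 838 CPM and to 73.2 to 113 CPM. Markers of astrocytes (6 of 6), oligodendrocytes (7 of 7), microglia (6 of 6) and endothelium (4 of 5) were higher in adult cortex. So were those of the choroid plexus (6 of 6, from 1.63 to 3.37 CPM to 589.6 to 727 CPM) and of the striatum (7 of 7, from 94.6 to 102 CPM to 858 to 965 CPM). Gjb6, Mobp and Ttr, markers of astrocytes, oligodendrocytes and the choroid plexus, were at 0 in at least 1 embryonic sample. Erythroid markers (2 of 3 lower) summed to 535 to 805 CPM in the embryo and 196 to 499.97 CPM in the adult.

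The exon data address whether the 8 genes with listed exons use the same exons at both ages. An exon share here is 100 divided by a whole number close to the gene's reads over the exon's reads, so it is an approximate percentage that is fine-grained for small exons and coarse for large ones. The shares of a gene need not add to 100%: over genes with at least 5 listed exons their sum had a median of 1.18 to 1.21 times the whole, depending on the sample. Exons are numbered by their order along the transcript among those listed. Of the 118 exons, 4 were called with a changed share by limma's diffSplice, or 3.39%, against 4.79% of all 86181 exons tested, and 20 of the 118 had an unadjusted p under 0.05, as did 14.2% of all exons tested. One direction at a time, 1 exon had a larger share in adult cortex, against 2.65% of all tested, and 3 had a smaller one, against 2.15%. No exon was called in Syp, Sv2a, Syn1, Rab3a or Bsn, whose smallest adjusted p in diffSplice was 0.0951, in Syn1. For large exons, such as the last ones of Syp, Rab3a and Sv2a, the steps of this measure are too coarse to show moderate changes.

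Rims1 showed the call with the smallest adjusted p. Its listed exon 5 of 32, which starts at position 22600115 of chromosome 1 (mm9), had shares of 0.909%, 0.730%, 0.943% and 0.971% in the embryonic samples. In the adult samples its shares were 0.422%, 0.156% and 0.226%, below all embryonic values (diffSplice adjusted p = 0.000319). These shares stand for an estimated 12 to 16 reads in embryonic and 12 to 27 reads in adult samples. The exon was called in all 12 alternatives tried, with an adjusted p from 1.46e-08 to 0.0452 in limma.

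The other 3 called exons depended on single samples or settings. Syn2 listed exon 6, which starts at 115203013 on chromosome 6, went from 3.80% ± 0.342 to 3.03% ± 0.0919 without overlap (diffSplice adjusted p = 0.0418). Syn2 listed exon 1, which starts at 115084920, held 3.45%, 2.17%, 2.86% and 4.17% in the embryonic and 6.25%, 6.67% and 3.45% in the adult samples. The groups overlapped, adult replicates 1 and 2 being high, and without adult replicate 2 the diffSplice adjusted p was 0.0779 against 0.000541 with it. Over 5461 genes, the median share of the first listed exon was also higher in adult replicates 1 and 2 (3.57% and 4.17%) than in adult replicate 3 (3.13%), and whether this moved the Syn2 value was not tested. Pclo listed exon 20, which starts at 14811610 on chromosome 5, went from 1.38% ± 0.185 to 0.940% ± 0.233 with overlapping groups (diffSplice adjusted p = 0.0164, and 0.234 without adult replicate 1).

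**Figure D5:**
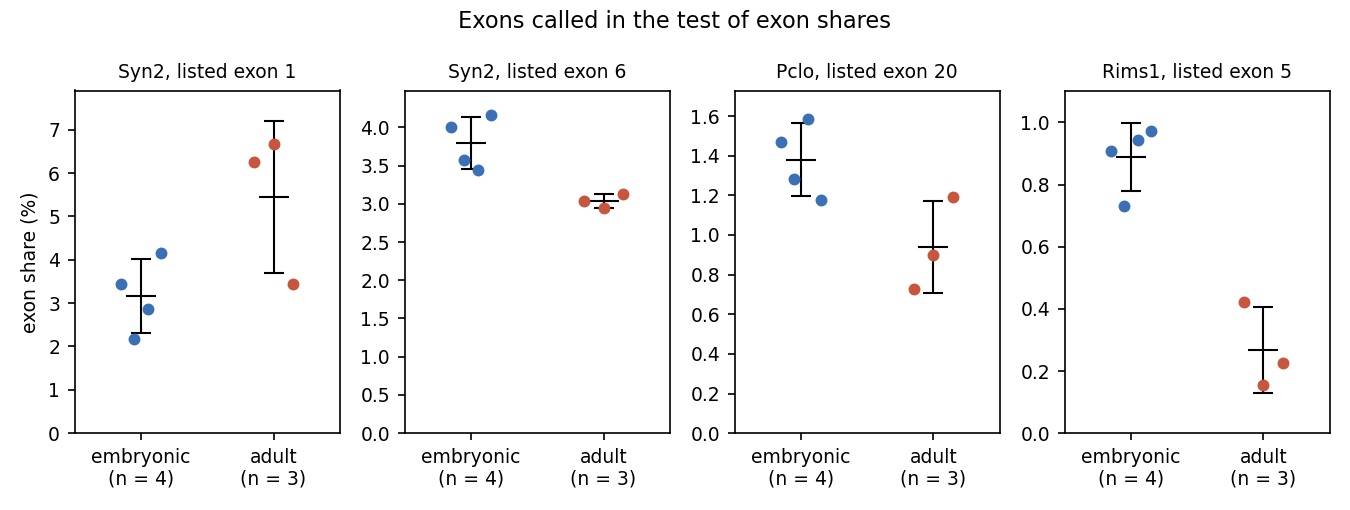
Exon share of each of the 4 called exons, in percent (vertical axes from 0, each panel with its own scale), for 4 embryonic (blue) and 3 adult (red) samples, with bars at the mean ± SD. Groups are apart for Syn2 listed exon 6 and Rims1 listed exon 5, and overlap for Syn2 listed exon 1 and Pclo listed exon 20.

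Genes outside the list were ranked by how closely they followed the mean profile of the 9 genes over the 7 samples, which differed by 2.19 between the ages. The 5 nearest, by root mean square difference of centred values on the deposited scale, were Prnp (0.043), Slc25a37 (0.044), Grhpr (0.046), App (0.055) and Vamp2 (0.060). Prnp, the prion protein gene, rose from 153 ± 9.60 to 645 ± 21.3 CPM, and App, the amyloid precursor protein gene, from 464 ± 15.4 to 1934 ± 89.6 CPM. Vamp2, which encodes synaptobrevin-2, the vesicle SNARE protein, rose from 228 ± 17.3 to 944 ± 15.6 CPM. This likeness is a description over 2 groups of samples, with no test.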

How the data were processed

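The 9 genes and the lists of other genes were chosen with earlier results of these data known. Libraries were prepared from total RNA by an Illumina kit for mRNA, per the labels. The submitters' processing notes name HTSeq 0.5.3p3, SAMtools 0.1.7a, TopHat 1.0.13, CASAVA 1.7.1, Bowtie 0.12.7.0 and the mm9 build. The deposited gene values were named variance-stabilized by the authors, with the tool not given in the sources used here, and from the values their scale is close to log2 and compresses low counts. The deposited exon values are a score described by the authors, per the file headers, as 1 over a ratio. The score steps through whole numbers that behave as gene reads divided by exon reads, so a higher value is a smaller share, taken as 100 divided by that number. The planned test was kept.

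Gene read counts were recovered from the deposited values, of which over 99.9% came out within 0.1 of a whole number. That percentage includes rows at 0 and the lowest steps of each sample, which are whole numbers by construction. CPM from these counts describe levels only, and lengths per gene are merged exons of GENCODE M21 (GRCm38). Tests used limma 3.58.1 in R 4.3.3 (lmFit, then eBayes allowing a mean-variance trend) on all 7 samples, two-sided, Benjamini-Hochberg adjusted over the whole table. Rows at their column's lowest value in more than 3 samples were left out. Exons were tested with diffSplice, each against the other exons of its gene. The fits were tested on simulated data with known changes and independent noise in each row. That simulation held no shift shared by many genes of a sample. Promoters are RefSeq's for GRCm38.p6, and no coordinate was converted between builds. Bzrap1 and Mtap2 were found through synonyms of Tspoap1 and Map2.

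All 9 genes are named. From each role of the further list the rule names the called gene with the largest rise and up to 3 called genes that fell; others are named as examples or relatives, after their values were seen. The rule names called exons whose groups do not overlap; the 2 called exons with overlapping groups are added. Alternatives were no trend, no filter, centring on sample medians, voom on recovered counts, the replicate number as a block, log2 exon shares, robust estimation, exons tested by themselves and leaving out each sample. All 14 sample columns were used. The values of 1 gene of the further list are not reported here.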

Additional observations from a re-analysis of the deposited data

Results flagged for a closer look

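In the 4 embryonic samples, 84 values were examined for a sample far from the rest, by Dixon's ratio of the gap to the range, and 5 exceeded its 95% critical value. Chance flags about 1 in 20 such groups. The ratios of the genes below were taken on the deposited log2-like scale. The CPM beside them describe levels only and need not give the same ratio or flag. Embryonic replicate 3 was the highest for Syp (ratio 0.886, at 168 CPM against 132 to 134 CPM), Syngr1 (0.907, 122 against 98.2 to 99.9 CPM), Dnm1 (0.873, 189 against 165 to 169 CPM) and Pacsin1 (0.901, 39.0 against 32.5 to 32.8 CPM). It was the lowest for Slc17a6 (0.846, 54.9 against 61.9 to 64.0 CPM).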

How the results depend on the processing

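All 9 genes stayed higher and called under each of the 12 alternatives (108 of 108 values, largest limma adjusted p = 0.00106). Among the 71 further genes, 52 to 54 were higher and 12 to 15 lower, and 840 of 852 values kept their direction and call. Centring on sample medians moved all differences by -0.18 and turned Rab3ip to -0.16 and Rab3il1 to -0.040, while Ap3b2 (-0.31) became called as lower. Slc17a6 turned to 0.00067 under the replicate block and without embryonic replicate 4, and ran from -0.17 to 0.27 when leaving out 1 sample, the highest being without adult replicate 3 (limma adjusted p = 0.0198). Dnm2 lost its call without the filter and without adult replicate 3, and Sh3gl3 without the filter, when centred and without adult replicate 2. The cause of these changes was not tested.

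The count of called exons, 4, was 7 on log2 shares, 2 with exons tested by themselves, 6 under the replicate block, and 1 (without adult replicate 2) to 7 (without adult replicate 3) when leaving out 1 sample. It was also 2 without embryonic replicate 1, embryonic replicate 3 or adult replicate 1. Syn2 listed exon 6 lost its call in 8 of 12 alternatives, Pclo listed exon 20 in 5 and Syn2 listed exon 1 in 2. The difference of differences kept its sign for all 6 paralog pairs when leaving out 1 sample, from 2.14 to 2.40 for Sv2b minus Sv2a and from 0.05 to 0.28 for Synpr minus Syp. Deviations of same-numbered embryonic and adult samples had correlations of 0.0088, 0.057 and 0.041. Differently numbered samples ran from -0.047 to 0.062. With so few pairs, small correlations cannot exclude that the numbers are a pairing. The replicate block drops embryonic replicate 4 and left 9 genes called, with 53 higher and 13 lower in the further list. Small exon shares can rest on few reads, down to an estimated 1 read in a sample, which limits their precision.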

Other observations

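The length pattern of embryonic replicate 3 was present beyond the vesicle and active zone genes. Over 10561 genes with a mean of at least 100 reads, its median deviation from the other embryonic samples was 0.098 for genes with under 3 kb of exons (4021 genes), -0.0073 from 3 to 6 kb (4483), -0.12 from 6 to 10 kb (1646) and -0.21 at 10 kb or more (411). The other embryonic samples lay between -0.065 and 0.0062 in the shortest class and between 0.017 and 0.10 in the longest. Adult samples lay between -0.053 and 0.056 in the shortest class and between -0.041 and 0.050 in the longest. The median share of the first listed exon was lowest in embryonic replicate 3, at 2.86% against 2.94% to 3.45% in the other embryonic samples.

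Each of the 3 synapsin genes has a metalloproteinase inhibitor gene of the Timp family within it on the opposite strand. Timp4, within Syn2, rose from 1.998 ± 0.0986 to 29.8 ± 5.82 CPM (difference 3.64, SE 0.13, limma adjusted p = 1.73e-11), and Timp3, within Syn3, rose (difference 2.64, limma adjusted p = 1.05e-10) where Syn3 fell. Timp1, within Syn1, was at 0.538 ± 0.0827 and 0.739 ± 0.209 CPM and was not called (limma adjusted p = 0.185).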
